A study of Homo sapiens with 44 samples.

Results

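The keratin genes were followed across a hormone experiment in ZR-75-1 cells, an established human breast cancer cell line of luminal type that carries the estrogen and progesterone receptors. Members were the genes whose annotated symbol is KRT followed by a number and at most 1 letter, so that keratin associated proteins stayed out, and each gene was read from its transcript cluster (the probe set of one transcription unit) with the highest mean over all arrays. This gave 48 keratins among 14884 named genes. RNA was measured on 44 Affymetrix expression arrays in 14 groups. Cells were primed for 72 h with 10 nM estradiol (E2p, estrogen pretreated) or with vehicle, and a second treatment was then added on top of the medium without removing it. The unprimed group received vehicle for 16 h. The estrogen pretreated groups received vehicle (0, 4, 8 or 16 h), 10 nM progesterone, abbreviated P4 (4, 8 or 16 h), or 10 nM medroxyprogesterone acetate, abbreviated MPA (the same 3 times). A last set received fresh estradiol alone (E2), E2+P4 or E2+MPA, each for 16 h. There were 5 arrays of E2+P4 and 3 of each of the other 13 groups. The vehicle is ethanol, and the labels give its dilution differently at 0 h than at the later times. All 44 arrays come from 1 cell line, and nothing in the sources says that replicates were separate experiments, so the p-values measure the spread between these samples only.

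Keratins build the intermediate filaments of epithelial cells. A filament needs an acidic (type I) and a basic (type II) partner, and the pairs mark the kind of epithelium. KRT8 and KRT18, with KRT19 and KRT7, are the simple keratins of luminal breast cells, whereas KRT5 and KRT14 mark the basal and myoepithelial layer of the breast. KRT15 belongs to basal cells of stratified epithelia, KRT16 and the KRT6 genes are induced in activated and wounded skin, KRT1, KRT2 and KRT10 are made by the upper layers of the epidermis, and a large set is made in hair, nail and the sheaths of the hair root. The genes lie in clusters on chromosomes 12 and 17: 22 members were on chromosome 12, which holds the type II genes and KRT18, and 26 on chromosome 17. Of 54 keratins sorted by these classes, 47 had a cluster, and KRT42P, a pseudogene, was left unclassed. KRT17, KRT6A, KRT6B, KRT34, KRT81, KRT82 and KRT86 were not analysed here. Several keratins have near-identical relatives or processed copies elsewhere in the genome (KRT8, KRT18, KRT14 and KRT16, KRT33A and KRT33B, KRT6C, KRT83), and probes of these genes may share signal with them.

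The values are RMA values on a log2 scale, from which background and between-array differences have already been taken out. Array medians lay between 5.52 and 5.67 and correlations between arrays between 0.963 and 0.993. All 8 luminal markers that could be read (among them KRT8, KRT18 and KRT19) were above the 30th percentile of every array, as were 3 of 4 basal, 2 of 3 endothelial and 1 of 2 immune markers. The fibroblast markers DCN and LUM were above it on 0 arrays. Passing this rank thus did not set luminal markers apart from those of other cell types.

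Of the 48 keratins, 29 were above the 30th percentile of all 44 arrays, a level of 4.47 to 4.60 depending on the array. This percentile is a rank and not a detection call, and levels of different genes rest on different probes, so they give no order of abundance. The 4 keratins with a mean above 7 were KRT18 (range over the arrays 11.20 to 12.14), KRT19 (10.67 to 11.91), KRT80 (7.04 to 11.40), an epithelial keratin made widely in differentiating epithelia, and KRT8 (7.15 to 8.08). A further 9 had a mean between 6 and 7, namely KRT23, KRT16, KRT4, KRT15, KRT37, KRT7, KRT85, KRT31 and KRT78, and 35 lay under 6. Above the median of every array were 11 keratins. At the lower end KRT12, KRT6C, KRT26 and KRT28 were above the 30th percentile on 0 arrays and were not tested. KRT33A was above it on 4 arrays, scattered over 4 groups, and entered the tests on the strength of those. The other members just inside the limit were KRT76 (28 arrays), KRT73 (35), KRT38 (37), KRT20 (38) and KRT33B (39). By class, the filter was passed by 5 of 5 simple, 4 of 5 basal and activated, 14 of 15 suprabasal and other epithelial, 7 of 9 root sheath and 13 of 13 hair and nail keratins, 44 members in all.

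**Figure D1:**
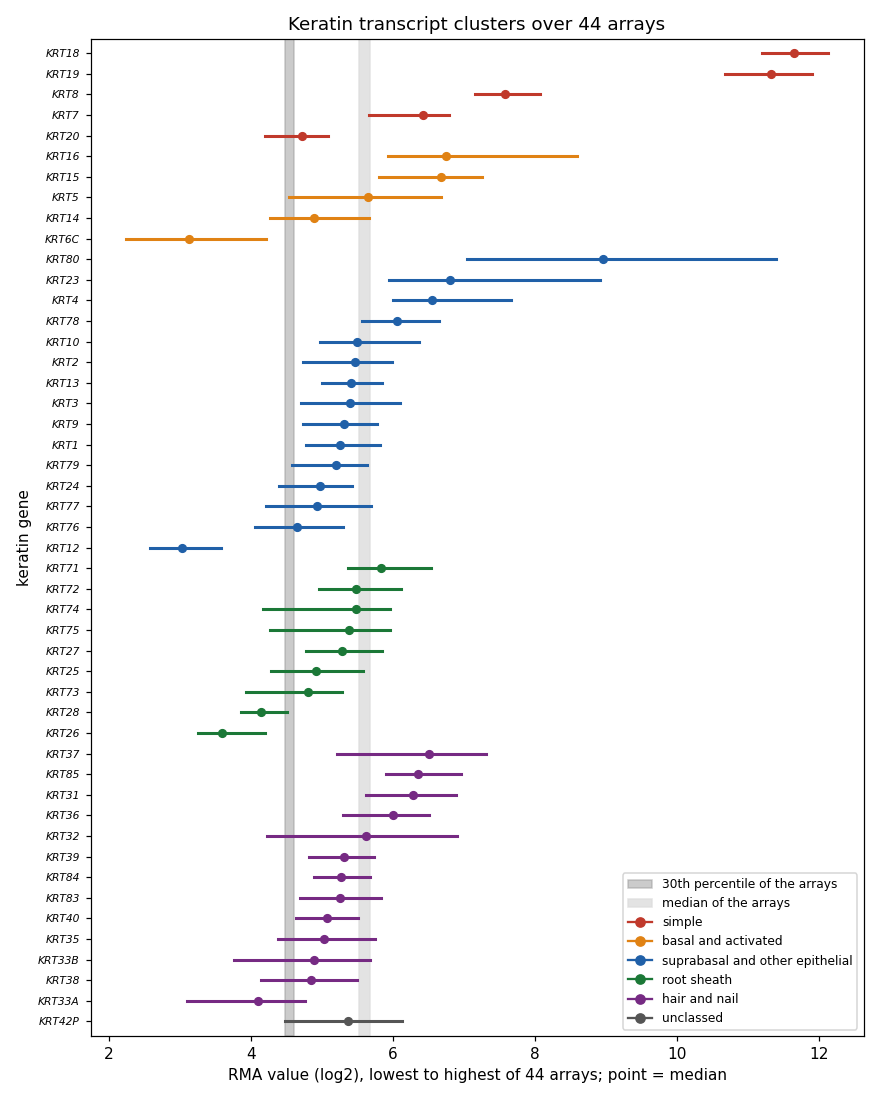
Level of each keratin over the 44 arrays (horizontal axis: RMA value, log2; line from the lowest to the highest array, point at the median), grouped by class. The dark band is the range of the 30th percentile of the arrays (4.47 to 4.60) and the light band that of the median (5.52 to 5.67). KRT18 and KRT19 sit far above both bands on every array, KRT80 spans the widest range (7.04 to 11.40), and KRT12, KRT6C and KRT26 stay left of the dark band, which KRT28 just reaches.

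A moderated F test over the 14 groups (limma, Benjamini-Hochberg adjusted over 41374 clusters, called at an adjusted p of at most 0.05, as for all calls that follow) called 16 of the 44 keratins, or 36.4%, where it called 37.6% of all clusters. Keratins therefore varied about as often as other transcripts. The 3 smallest adjusted p-values were those of KRT15 (7.54e-14), KRT23 (4.06e-13) and KRT80 (4.35e-11). KRT80 had the widest spread of group means, 3.82, from 7.31 in E2p P4 4 h to 11.13 in E2p E2+MPA 16 h, against a median SD of 0.21 within groups. KRT23 spanned 2.76, KRT16 2.08, KRT32 1.85 and KRT5 1.69.

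**Figure D2:**
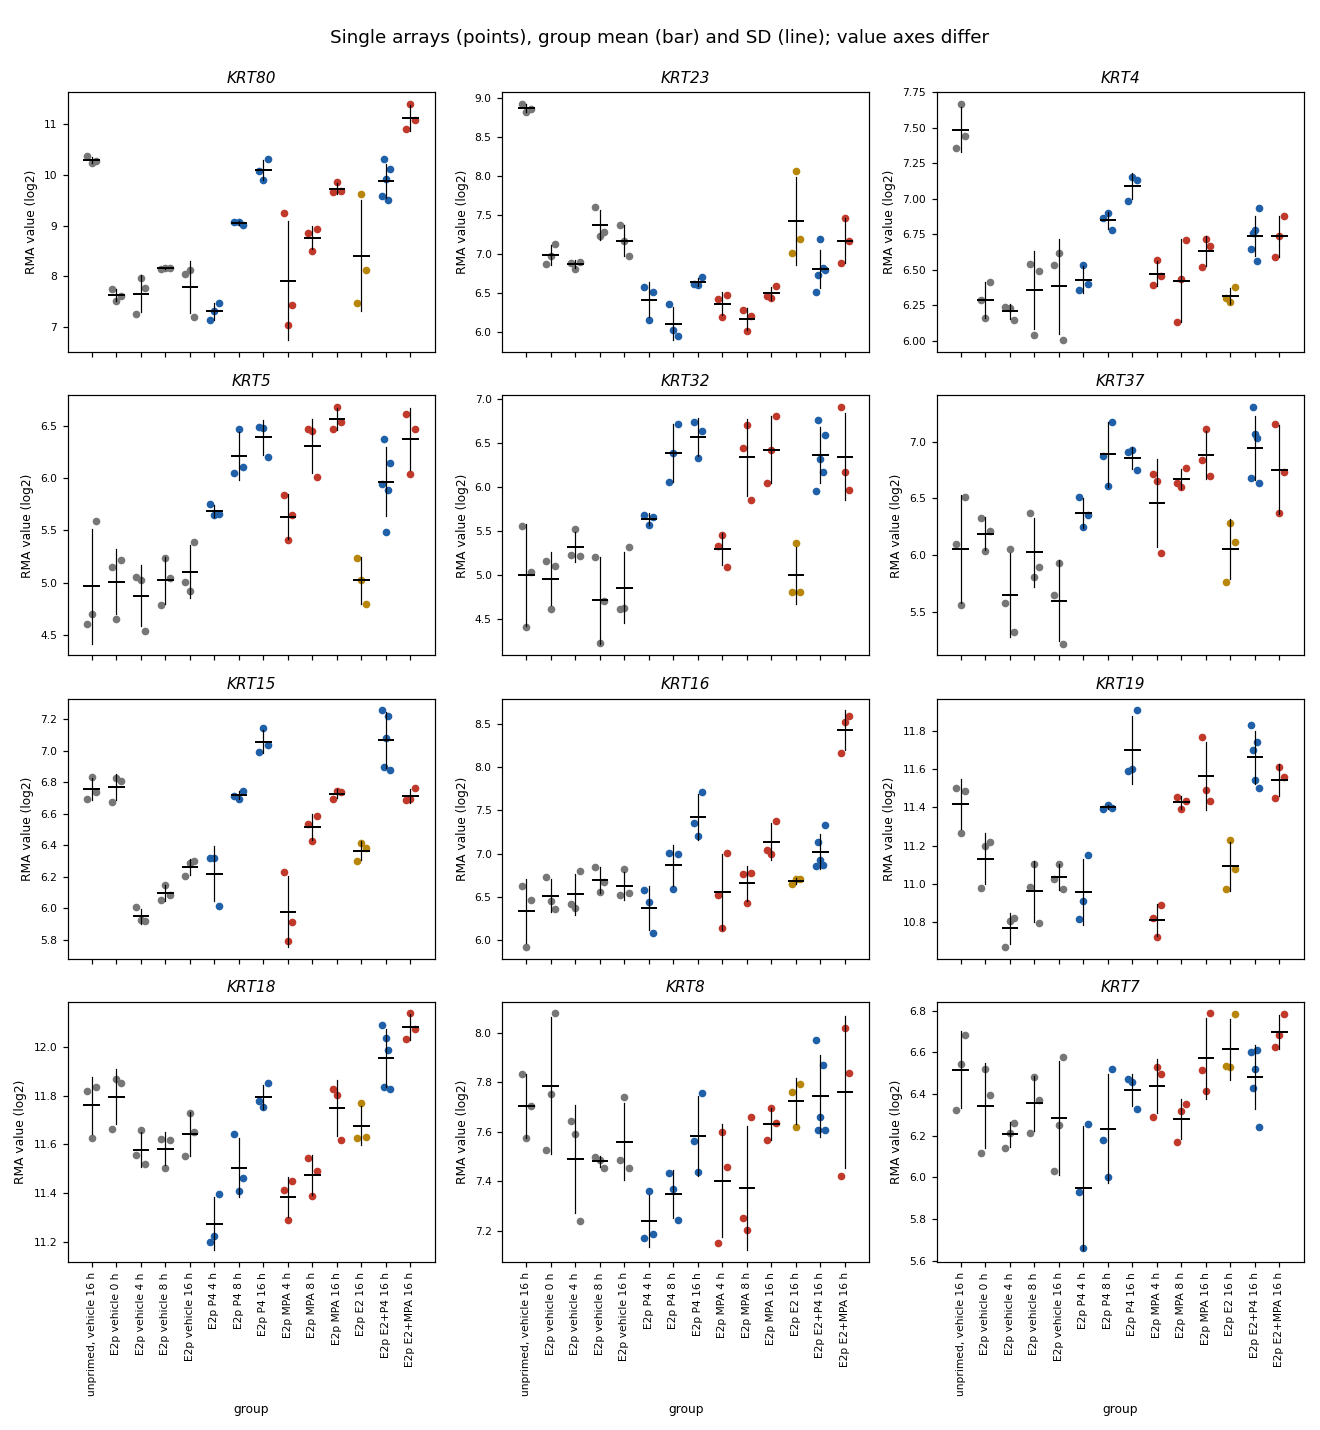
Values of 12 keratins on single arrays (vertical axes: RMA value, log2, with a different range in each panel) in the 14 groups, with the group mean (bar) and SD (line). Grey points are vehicle groups, blue P4 and E2+P4, red MPA and E2+MPA, and yellow E2 alone. KRT80, KRT23 and KRT4 are highest or nearly highest in the unprimed group, while KRT5 and KRT32 are high wherever a progestin acted for 8 h or longer.

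Estradiol priming was assessed by comparing E2p vehicle 16 h with the unprimed vehicle 16 h group. KRT80 was 10.37, 10.24 and 10.28 on the unprimed arrays and 8.04, 8.12 and 7.20 on the primed arrays. The groups did not overlap, and KRT80 fell by 2.51 ± 0.37 on the log2 scale (SE, n = 3 per group), a 5.69-fold lower level (limma, adjusted p = 9.1e-06). KRT23, an acidic keratin of simple and glandular epithelia, was 8.92, 8.82 and 8.85 without and 7.37, 7.16 and 6.97 with priming, a change of -1.70 ± 0.18 (adjusted p = 1.31e-08). KRT4, a keratin of the mucosa of mouth and oesophagus, changed from 7.36, 7.67 and 7.44 to 6.54, 6.62 and 6.00, by -1.10 ± 0.14 (adjusted p = 2.78e-07). All 3 of these keratins of differentiating or lining epithelia were thus lower in every primed array than in any unprimed array. KRT15 (-0.49) and KRT19 (-0.38) were also called lower and KRT84, a hair and tongue keratin, higher (0.41). These 6 are 13.6% of the keratins tested, against 7.50% of all clusters called (2.55% higher and 4.95% lower), and the median keratin changed by 0.07 against 0.01 over all clusters. Higher calls made up 34.0% of all calls here, a share that was 25.6% with arrays shifted to a common median, 46.8% with the interquartile range of each array as a covariate and 43.99% with array weights. The smaller changes were less secure. The call of KRT19 was lost without E2p vehicle 16 h replicate 3, unprimed replicate 1 or unprimed replicate 3 (adjusted p up to 0.0917), and that of KRT84 without any one of 5 arrays, all but E2p vehicle 16 h replicate 2 (up to 0.152).

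KRT5 was low in both groups of this comparison, at 4.60, 4.70 and 5.59 unprimed and 5.01, 4.92 and 5.39 primed. KRT8, KRT18, KRT7 and KRT14 were not called, with changes of -0.14 ± 0.15, -0.12 ± 0.08, -0.23 ± 0.14 and -0.15 ± 0.22.

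The choice of the primed group moved the smaller calls. With E2p vehicle at 0 h in place of 16 h, 2 keratins were higher and 3 lower than in unprimed cells, where 12.1% of all clusters were called. KRT35, a hair keratin, was higher there (0.66 ± 0.21, adjusted p = 0.0300), as was KRT84 (0.40 ± 0.12), and KRT19 lost its call (-0.28 ± 0.10, adjusted p = 0.0747). KRT15 lost its call as well. Under vehicle alone KRT15 was 6.68, 6.83 and 6.81 at 0 h and 6.01, 5.92 and 5.92 at 4 h. It then stood at 6.06, 6.15 and 6.08 at 8 h and at 6.21, 6.29 and 6.30 at 16 h, so that no later array reached the 0 h level. The falls against 0 h were 0.82, 0.67 and 0.51 (SE 0.09 each). KRT15 was the 1 keratin called in the F test over the 4 vehicle times (adjusted p = 2.83e-06), which called 1.94% of all clusters. Against the unprimed arrays (6.70, 6.83 and 6.74), E2p vehicle at 0 h differed by 0.02 (adjusted p = 0.950), whereas KRT80, KRT23 and KRT4 were also lower at 0 h, by 2.67, 1.88 and 1.20 on the log2 scale. By the labels the vehicle overlay lasted 0 h in these primed cells, at another stated dilution, and 16 h in the unprimed cells. Priming and overlay therefore cannot be told apart in that comparison.

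Progesterone was compared with vehicle of the same hour in estrogen pretreated cells. KRT5 and KRT37 were called higher from 4 h on, KRT32, KRT15, KRT19 and KRT4 from 8 h on, and KRT80, KRT16 and KRT10 at 16 h, while KRT23 was lower at 8 and 16 h. At 4 h 4 keratins rose (KRT5, KRT37, KRT73 and KRT2) and 1 fell (KRT18), 11.4% of those tested against 7.90% of all clusters (4.55% higher, 3.35% lower). At 8 h the counts were 6 higher and 1 lower, 15.9% against 13.3% (6.06% higher, 7.22% lower). At 16 h they were 10 higher and 1 lower, 25.0% against 15.8% (7.91% higher, 7.92% lower). The median keratin changed by -0.02, 0.09 and -0.00 at the 3 times, and the median cluster by -0.03, 0.00 and -0.01.

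KRT5 was 5.75, 5.65 and 5.66 after 4 h of P4, against 5.06, 5.03 and 4.54 under vehicle. At 8 h it was 6.05, 6.47 and 6.10 against 4.79, 5.24 and 5.05, and at 16 h 6.48, 6.48 and 6.20 against 5.01, 4.92 and 5.39. Every P4 array was above every vehicle array of its hour. The changes were 0.81 ± 0.22 (adjusted p = 0.0138), 1.19 ± 0.22 (0.000127) and 1.28 ± 0.22 (3.55e-05), or 1.76-, 2.28- and 2.43-fold. KRT5 remained in the middle of the array's range of values even so, with a highest single value of 6.68. KRT14, the partner of KRT5 in basal cells, was 5.23, 5.22 and 5.44 at 16 h of P4 and 4.26, 5.02 and 5.23 under vehicle. Those groups overlapped, and the difference of 0.45 ± 0.22 was not called (adjusted p = 0.191). Of the 4 basal and myoepithelial markers that could be read (KRT5, KRT14, OXTR and MME), the summed level on the log2 scale was 8.56 to 8.66 at 16 h of P4 and 7.99 to 8.13 under vehicle of that hour, and 7.91 to 8.03 at 4 h of P4 against 7.78 to 7.87. At 8 h the ranges overlapped (8.13 to 8.28 against 8.02 to 8.17). Unprimed arrays, which had no progestin, gave 8.33 to 8.71, a range that holds that of P4 at 16 h. E2+P4 (8.22 to 8.63) overlapped E2 alone (8.00 to 8.44), whereas E2+MPA (8.73 to 8.77) did not. OXTR had the highest mean of these markers (7.46) and so weighed most in the sum. The summed level of the 8 luminal markers was 13.46 to 13.56 at 16 h of P4 and 13.91 to 13.999 under vehicle, and it was lower under P4 without overlap at 4 and 8 h too. Of the basal markers 2 and of the luminal ones 3 are keratins described here, and the part of either list in the keratin changes was not tested.

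KRT32 and KRT37, acidic keratins of hair, were first called at different times, and their time courses were not tested against each other. KRT32 was 5.69, 5.57 and 5.66 at 4 h against 5.23, 5.52 and 5.22 under vehicle, without overlap but not called (0.31 ± 0.28). It was 6.05, 6.39 and 6.71 at 8 h against 5.21, 4.23 and 4.71, and 6.74, 6.33 and 6.63 at 16 h against 4.62, 4.63 and 5.33. These changes of 1.67 ± 0.28 and 1.71 ± 0.28 were the largest of any keratin at 8 h and the second largest at 16 h. KRT37 was higher at each time, with changes of 0.72, 0.87 and 1.26 (SE 0.23 each), and at 16 h it was 6.91, 6.93 and 6.75 against 5.65, 5.93 and 5.22 under vehicle.

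KRT80 had another course. After 4 h of P4 it was 7.14, 7.31 and 7.47, within reach of the vehicle values of 7.25, 7.96 and 7.77. At 8 h it was 9.07, 9.07 and 9.01 against 8.15, 8.16 and 8.16, a gap with no overlap that was not called in the fit over all groups (0.89 ± 0.37, adjusted p = 0.126). At 16 h it was 10.08, 9.91 and 10.31 against 8.04, 8.12 and 7.20, 2.31 ± 0.37 higher (4.97-fold, adjusted p = 1.43e-05). The effect at 16 h exceeded that at 4 h by 2.67 ± 0.53 in a test of the difference itself (adjusted p = 0.000821). That test called 6 keratins, all higher at 16 h (13.6% against 6.71% of all clusters, 3.43% higher and 3.28% lower): besides KRT80 these were KRT32 (1.39), KRT16 (0.95), KRT15 (0.52), KRT19 (0.47) and KRT18 (0.45).

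Of the basal and activated class, 3 of 4 rose at 16 h and 0 fell, where 7.91% of all clusters rose and 7.92% fell, with a median change of 0.79. KRT15 was 6.996, 7.14 and 7.04 under P4 against 6.21, 6.29 and 6.30 (0.79 ± 0.09, adjusted p = 5.54e-08). KRT16 was 7.36, 7.20 and 7.71 against 6.52, 6.82 and 6.55 (0.79 ± 0.19, adjusted p = 0.00272). Neither pair of groups overlapped, and KRT16 had not been called at 4 or 8 h. KRT15 had itself fallen under vehicle after 0 h, as given above. Its P4 arrays at 16 h were above all 0 h vehicle arrays, whereas those at 8 h (6.69 to 6.75) lay within the 0 h range.

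Among the simple keratins KRT19, KRT18, KRT7 and KRT8 passed the F test over all groups, with group means that spanned less than 1 on the log2 scale. KRT19, the acidic simple keratin of ductal cells, was the 1 of 5 called at 16 h. It was 11.59, 11.60 and 11.91 under P4 against 11.03, 11.11 and 10.98 under vehicle, a rise of 0.66 ± 0.10 (1.58-fold, adjusted p = 1.04e-05) with no overlap. KRT18 was lower at 4 h, at 11.20, 11.23 and 11.40 against 11.56, 11.66 and 11.52 (-0.30 ± 0.08, adjusted p = 0.0178), and 0.15 ± 0.08 higher at 16 h (not called). A second, dimmer cluster annotated as KRT18 averaged 7.80 ± 0.01 (SD, n = 3) at 4 h of P4 and 8.17 ± 0.17 under vehicle. At 8 h of P4 the dimmer cluster averaged 8.39 against 8.27 under vehicle, while the cluster used averaged 11.50 against 11.58 (not called). With E2+P4 and E2+MPA the dimmer cluster averaged 8.59 and 8.65, against 8.40 with E2 alone. KRT8, the basic partner of KRT18, was 7.17, 7.36 and 7.19 at 4 h of P4 against 7.64, 7.59 and 7.24, which overlapped and was not called (-0.25 ± 0.15, adjusted p = 0.391). KRT8 and KRT7 were called in the F test over all groups (adjusted p = 0.0166 and 0.00477) but in 0 of the pairwise comparisons. KRT20, an intestinal simple keratin, lay at 4.20 to 5.08 over all arrays, around the 30th percentile, and was not called at any time of P4.

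Among the suprabasal and other keratins 4 of 14 rose at 16 h and 1 fell (35.7% called, against 15.8% of all clusters). Beside KRT80 these were KRT2 (0.80 ± 0.16), KRT4 (0.71 ± 0.14) and KRT10 (0.61 ± 0.15), the first and last being keratins of the upper epidermis. KRT10 was 5.74, 5.86 and 6.07 against 5.28, 5.43 and 5.14. KRT23 fell and then partly recovered: it was 6.57, 6.15 and 6.50 at 4 h, 6.35, 6.02 and 5.94 at 8 h and 6.61, 6.60 and 6.69 at 16 h. Vehicle arrays of the same hours read 6.88, 6.81 and 6.90, then 7.60, 7.23 and 7.28, then 7.37, 7.16 and 6.97. The change of -1.27 ± 0.18 at 8 h (adjusted p = 2.03e-06) was called, as was that of -0.53 ± 0.18 at 16 h (adjusted p = 0.0390). Root sheath keratins gave 0 calls of 7 at 16 h and hair and nail keratins 2 of 13 (15.4%), near the 15.8% of all clusters.

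How far 1 array decided these calls differed with time. Each of the 5 calls at 4 h was lost when some single array was left out. For KRT5 these arrays were P4 4 h replicate 1 and vehicle 4 h replicate 3 (adjusted p = 0.0592 and 0.0939). KRT18 lost its call without P4 4 h replicate 1 or 2 or vehicle 4 h replicate 2 (adjusted p up to 0.107), KRT37 without any of 5 arrays, all but vehicle 4 h replicate 2 (up to 0.188), KRT2 without P4 4 h replicate 1 or 3 or vehicle 4 h replicate 1 or 2 (up to 0.226), and KRT73 without P4 4 h replicate 2 or 3 or vehicle 4 h replicate 1 or 3 (up to 0.133). KRT2 was also the 1 of these 5 whose groups overlapped. At 8 h 5 of 7 calls were kept whichever array was left out, the exceptions being KRT37 (without P4 replicate 3 or vehicle replicate 2, adjusted p up to 0.0725) and KRT4 (without vehicle replicate 2, 0.161). At 16 h 10 of 11 were kept. The exception was KRT23, which held its call only without vehicle 16 h replicate 3 (adjusted p up to 0.178).

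**Figure D3:**
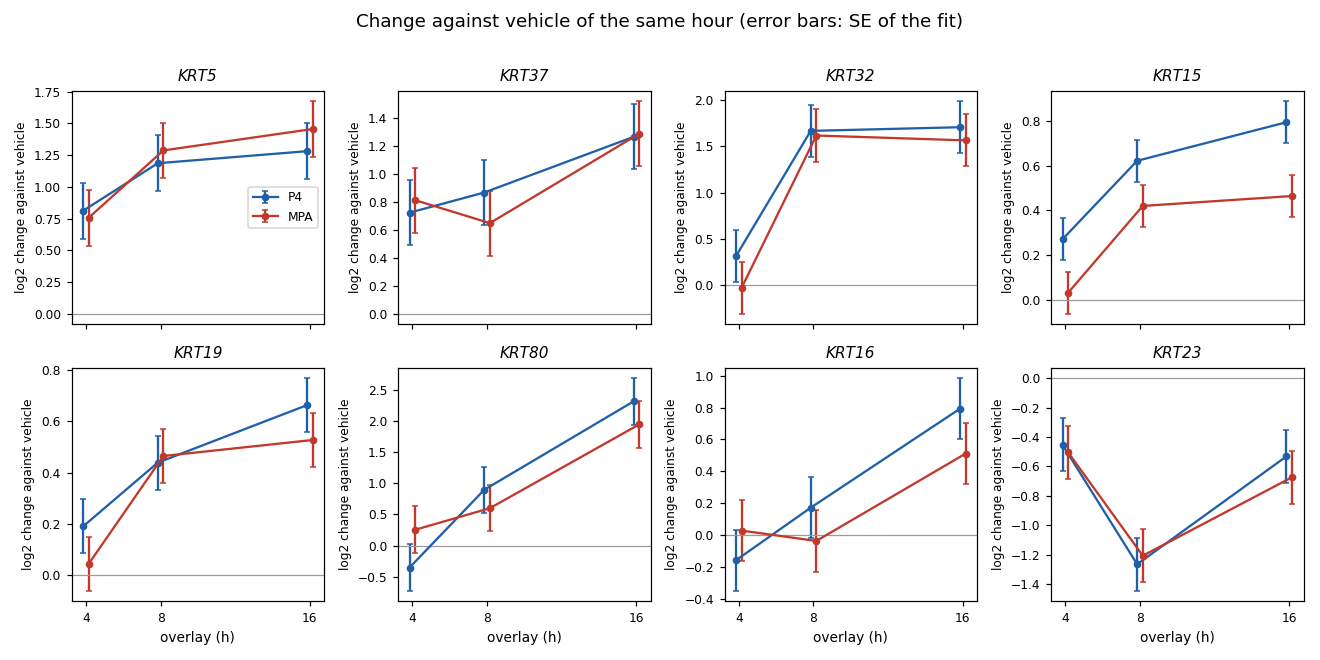
Change against vehicle of the same hour (vertical axis: log2 change, error bars SE of the limma fit) at 4, 8 and 16 h (horizontal axis) for P4 (blue) and MPA (red). KRT5 and KRT37 are above 0 from 4 h and KRT80 most at 16 h (2.31 under P4 and 1.94 under MPA). KRT32 is at 0.31 under P4 and -0.03 under MPA at 4 h, and far higher under both from 8 h on. KRT23 is lowest at 8 h.

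MPA, a synthetic progestin, has the progesterone skeleton with an added methyl group and an added acetoxy group. Dose and times were those of P4. Against vehicle, MPA raised 4 keratins and lowered 0 at 4 h (9.09% of those tested against 8.28% of all clusters, 4.16% higher and 4.12% lower). It raised 4 and lowered 1 at 8 h, 11.4% against 14.3% (6.30% higher, 7.96% lower), and raised 8 and lowered 1 at 16 h, 20.5% against 16.0% (6.72% higher, 9.26% lower). The vehicle arrays are the ones used for P4. KRT5 was 5.83, 5.41 and 5.65 at 4 h, 6.47, 6.45 and 6.01 at 8 h and 6.47, 6.68 and 6.54 at 16 h of MPA, changes of 0.76, 1.29 and 1.46 (SE 0.22 each). The call at 4 h was lost without MPA 4 h replicate 1 or 3 or vehicle 4 h replicate 3 (adjusted p up to 0.181), whereas those at 8 and 16 h were kept whichever array was left out. KRT80 was 9.65, 9.85 and 9.69 at 16 h of MPA (1.94 ± 0.37, adjusted p = 0.000186). At 4 h its replicate 1 read 9.25 beside 7.04 and 7.44, and the change of 0.25 at that time became -0.42 without it. Neither value was called.

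At 8 h of MPA KRT32 (1.62 ± 0.28), KRT5, KRT19 (0.46 ± 0.10) and KRT15 (0.42 ± 0.09) were higher and KRT23 was lower (-1.21 ± 0.18). All 5 calls were kept whichever array was left out. KRT80, at 8.84, 8.50 and 8.92, was above the vehicle arrays but not called (0.60 ± 0.37). The other keratins called at 16 h of MPA were KRT32 (1.56), KRT37 (1.29), KRT10 (0.74), KRT2 (0.68), KRT19 (0.53) and KRT15 (0.46) upwards and KRT23 (-0.67) downwards. For KRT15 the MPA arrays at 16 h lay within the range of the 0 h vehicle arrays, and those at 8 h (6.43 to 6.58) lay below it. KRT23 lost its call without vehicle 16 h replicate 1 (adjusted p = 0.0576). At 4 h of MPA the calls of KRT37 (0.81), KRT2 (0.56) and KRT20 each depended on single arrays. For KRT37 and KRT2 the MPA arrays also overlapped the vehicle arrays of that hour. KRT37 lost its call without MPA 4 h replicate 1 or 2 or vehicle 4 h replicate 3, KRT2 without MPA 4 h replicate 1 or 3 or vehicle 4 h replicate 1 or 2, and KRT20 without MPA 4 h replicate 3 or vehicle 4 h replicate 3 (adjusted p up to 0.164). KRT20 was 4.79, 4.77 and 4.91 at 4 h of MPA and under the 30th percentile on all 3 vehicle arrays, at least 1.23-fold higher when those are set to that percentile. The MPA effect at 16 h exceeded that at 4 h for KRT32 by 1.59 and KRT10 by 0.71, 2 of 44 keratins (4.55%) where 4.38% of all clusters were called, and for KRT80 by 1.69 (not called).

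In the direct test of MPA against P4, 0 keratins were called at 4, 8 or 16 h by limma, where 0.0145%, 0.00242% and 0.0121% of all clusters were. At an unadjusted p under 0.05 there were 8, 4 and 2. The intervals were not narrow: at 16 h the difference MPA minus P4 was -0.37 for KRT80 (95% interval -1.13 to 0.39), 0.17 for KRT5 (-0.27 to 0.62), -0.14 for KRT32 (-0.71 to 0.43) and -0.28 for KRT16 (-0.67 to 0.11). Differences of these sizes were therefore not detectable with 3 arrays a group. Over the 3 times together KRT15 was the 1 keratin called (0.276% of all clusters were). It was 0.26 ± 0.05 lower under MPA than under P4 on the log2 scale (95% interval of the difference -0.37 to -0.15, adjusted p = 0.0249). At 16 h KRT15 read 6.70, 6.75 and 6.74 with MPA, below the lowest P4 array. The pooled call was lost without any one of 8 of the 18 arrays (adjusted p up to 0.0777). Those were MPA 4 h replicates 2 and 3, MPA 8 h replicate 2, MPA 16 h replicate 1, P4 4 h replicates 1 and 2, P4 8 h replicate 3 and P4 16 h replicate 2.

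Fresh estradiol added for 16 h to primed cells changed 0 keratins in the limma test, 2 at an unadjusted p under 0.05 (KRT7 and KRT73), and 0.00483% of all clusters. KRT80 was 7.48, 9.61 and 8.13 after E2 and KRT23 7.005, 8.06 and 7.19, so that replicate 2 read high for both. Without that array the difference in KRT80 from vehicle was 0.02 in place of 0.62 (95% interval with it -0.14 to 1.38). KRT5, at 5.24, 5.03 and 4.80, overlapped the vehicle 16 h arrays.

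Against E2 alone, E2+P4 raised 10 keratins and lowered 1 (25.0% against 13.9% of all clusters, 5.95% higher and 7.92% lower; n = 5 and 3). KRT80 was 9.59, 10.30, 9.91, 9.50 and 10.11, a change of 1.48 ± 0.33 (adjusted p = 0.00156), and E2 replicate 2 overlapped these values. The change was 2.08 without that array and 1.01 without E2 replicate 1, where the call was lost (adjusted p = 0.0600). KRT32 (1.36 ± 0.25), KRT5 (0.94 ± 0.20), KRT37 (0.89 ± 0.21) and KRT15 (0.70 ± 0.08) rose with no overlap between groups, as did KRT19 (0.57 ± 0.09). KRT5 was 5.94, 6.37, 5.48, 5.89 and 6.14 here. The calls of these last 5 were kept whichever array was left out. Those of KRT10 (0.62), KRT83 (0.52), KRT4 (0.42) and KRT18 (0.28) each depended on single arrays, and that of KRT23 (-0.62) was lost without E2 replicate 2 (-0.30, adjusted p = 0.241). KRT83 lost its call without E2 replicate 2 or 3 or E2+P4 replicate 2 or 4, KRT4 without E2 replicate 1 or 2, KRT18 without E2 replicate 1 or 3 and KRT10 without E2 replicate 1.

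E2+MPA raised 12 keratins and lowered 0 (27.3% against 19.8% of all clusters, 8.04% higher and 11.8% lower). KRT16 was 8.16, 8.52 and 8.59, against 6.65, 6.71 and 6.71 with E2 alone. This rise of 1.73 ± 0.19 (3.33-fold, adjusted p = 1.09e-08) took KRT16 above every array of the other 13 groups, of which the highest read 7.71. KRT80 was 10.90, 11.40 and 11.08, also above every other array, and 2.72 ± 0.37 higher than with E2 alone (6.58-fold, adjusted p = 6.9e-07). KRT5 (1.35), KRT32 (1.35), KRT10 (0.80), KRT19 (0.45), KRT18 (0.40) and KRT15 (0.35) rose too, and with KRT16 and KRT80 these 8 calls were kept whichever array was left out. The calls of KRT37 (0.70), KRT83 (0.64), KRT78 (0.51) and KRT4 (0.42) were less secure. KRT83 and KRT78 lost theirs without E2 replicate 3, KRT78 also without E2+MPA replicate 3. KRT37 lost it without E2 replicate 1 or 3 or E2+MPA replicate 1 or 3, and KRT4 without E2 replicate 1 or 2 or E2+MPA replicate 2 or 3 (adjusted p up to 0.204).

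When E2+MPA was set against E2+P4 at 16 h, 3 keratins were called (6.82% against 6.08% of all clusters, 2.66% higher and 3.42% lower). KRT16 was 1.40 ± 0.17 higher with MPA (95% interval 1.05 to 1.75, adjusted p = 1.8e-06), KRT80 1.24 ± 0.33 higher (0.56 to 1.92, adjusted p = 0.0176), and KRT15 0.35 ± 0.08 lower on the log2 scale (adjusted p = 0.00698). The KRT80 call was lost without E2+MPA replicate 2 or 3 or E2+P4 replicate 4 (adjusted p up to 0.141), and that of KRT15 without E2+MPA replicate 2 (0.0537). The KRT16 call was kept whichever array was left out. For KRT5 the difference was 0.41 (0.01 to 0.80) and not called.

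A test of whether the progestin effect depended on fresh E2 called 0 keratins for P4 (2 at an unadjusted p under 0.05; 0.00967% of all clusters) and 1 for MPA (0.234% of all clusters). That was KRT16, whose response to MPA was 1.22 ± 0.27 larger with E2 (adjusted p = 0.0380). The call was lost without any one of 9 of the 12 arrays (all but E2 replicate 2, E2+MPA replicate 1 and MPA 16 h replicate 3), with the value then between 1.13 and 1.35 and the adjusted p at most 0.160. The summed level of 2 macrophage and monocyte genes, CD68 and CD14, was 8.75 to 9.57 on the 3 E2+MPA arrays. On the other 41 arrays it was 8.00 to 8.74, so the gap was narrow. CD68 had the higher mean (8.37, against 4.76 for CD14) and so made up most of the sum. CD68 is also a lysosomal gene of many cells, and its part in the KRT16 and KRT80 values was not tested.

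**Figure D4:**
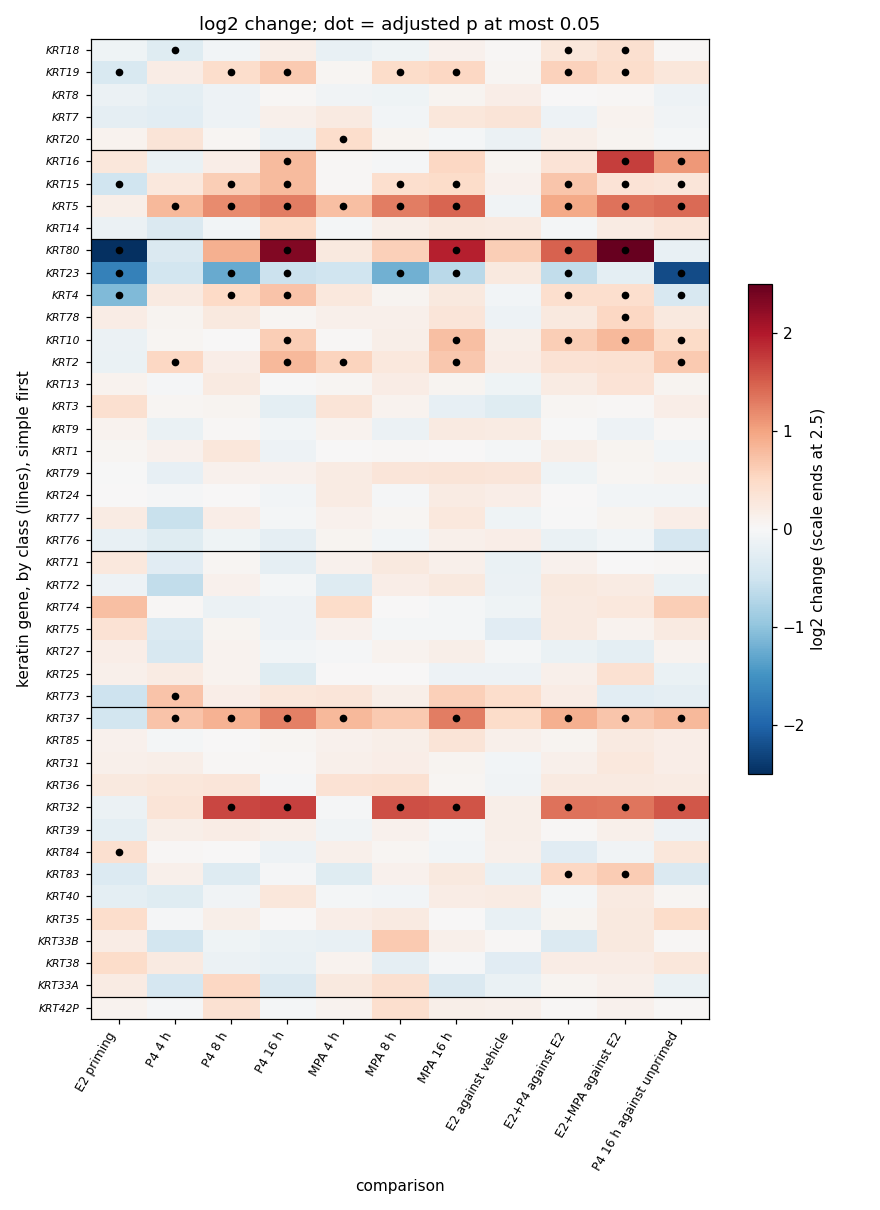
log2 change of the 44 tested keratins (rows, by class, simple keratins on top) in 11 comparisons (columns), with a dot where the adjusted p was at most 0.05. The colour scale ends at 2.5 in both directions. The dots gather in few rows, among them KRT5, KRT15, KRT19, KRT32 and KRT37, which carry them under both progestins. KRT80 is darkest (-2.51 with priming and 2.72 with E2+MPA against E2), and the root sheath rows are nearly empty.

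Set against unprimed cells, E2p P4 16 h differed in 9 keratins, 7 higher and 2 lower (20.5% against 18.8% of all clusters, 7.94% higher and 10.8% lower). KRT32 (1.56 ± 0.28), KRT5 (1.42 ± 0.22), KRT16 (1.08 ± 0.19), KRT37 (0.81 ± 0.23), KRT2 (0.65 ± 0.16), KRT10 (0.47 ± 0.15) and KRT15 (0.30 ± 0.09) were higher. KRT80, which fell with priming and rose with P4, ended at 10.08, 9.91 and 10.31 beside 10.37, 10.24 and 10.28 in unprimed cells (difference -0.19, 95% interval -0.95 to 0.56, adjusted p = 0.814). KRT23 stayed far below its unprimed level, by 2.23 on the log2 scale (4.69-fold lower, adjusted p = 9.93e-12). KRT4, at 6.98, 7.16 and 7.13, came to within -0.40 ± 0.14 of it (adjusted p = 0.0354). The 3 keratins lowered most by priming thus ended at different places after P4. Unprimed replicates 1 and 3 each decided the calls of KRT10 and KRT15, as did P4 16 h replicate 3 for KRT10 and replicate 2 for KRT15 (adjusted p up to 0.125). The call of KRT4 held only without unprimed replicate 1, and that of KRT37 was lost without unprimed replicate 2 (adjusted p = 0.141). With MPA at 16 h 8 were higher and 2 lower than in unprimed cells (22.7% against 22.8%, 9.43% higher and 13.4% lower; the higher share of all calls was 41.3%, and 29.7% with a common median or 51.4% with the interquartile range as a covariate), with KRT5 1.60 ± 0.22 higher and KRT80 at -0.56 (95% interval -1.32 to 0.20, not called).

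Of the 44 keratins tested, 27 were called in 0 pairwise comparisons other than that of primed vehicle at 0 h with unprimed cells, where KRT35 was called. Their changes in the other pairwise comparisons lay between -0.62 and 0.76. In the test of the P4 effect at 16 h against that at 4 h, KRT14 reached 0.81 ± 0.31 and was not called (limma, adjusted p = 0.128). Among the 27 were KRT8 and KRT7, which did pass the F test over all groups, KRT14, 6 of 7 root sheath keratins (KRT73 was called at 4 h of P4 alone) and most hair keratins, among them KRT31 and KRT85, whose means were above 6. KRT1, KRT13 and KRT9 of the stratified epithelia were also among them.

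To show what precedes the start of the hair and basal keratins called higher at 8 and 16 h of P4, the 250 bases upstream of KRT5, KRT32 and KRT37 are printed with those of KRT8, which was called in 0 comparisons. The sequences are RefSeq's, on GRCh38.p14, read 5′ to 3′ along the gene, which lies on the minus strand in each case: chr12:52520395-52520644 for KRT5, chr17:41467387-41467636 for KRT32, chr17:41424586-41424835 for KRT37 and chr12:52926470-52926719 for KRT8. Capitals mark matches to any of 6 motifs searched on both strands.
KRT5: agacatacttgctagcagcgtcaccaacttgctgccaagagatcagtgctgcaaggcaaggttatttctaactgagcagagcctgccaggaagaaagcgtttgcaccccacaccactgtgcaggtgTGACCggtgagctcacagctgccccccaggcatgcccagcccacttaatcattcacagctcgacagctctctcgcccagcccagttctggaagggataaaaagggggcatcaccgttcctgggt
KRT32: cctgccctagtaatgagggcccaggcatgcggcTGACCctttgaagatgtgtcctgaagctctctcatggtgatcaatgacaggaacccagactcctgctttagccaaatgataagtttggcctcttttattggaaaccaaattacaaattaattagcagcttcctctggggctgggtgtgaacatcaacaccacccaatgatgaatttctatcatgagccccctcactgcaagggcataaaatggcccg
KRT37: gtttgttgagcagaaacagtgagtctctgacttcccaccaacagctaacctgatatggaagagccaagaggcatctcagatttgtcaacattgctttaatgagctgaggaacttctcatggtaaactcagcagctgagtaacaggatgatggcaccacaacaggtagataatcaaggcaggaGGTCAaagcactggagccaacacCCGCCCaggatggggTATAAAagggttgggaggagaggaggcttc
KRT8: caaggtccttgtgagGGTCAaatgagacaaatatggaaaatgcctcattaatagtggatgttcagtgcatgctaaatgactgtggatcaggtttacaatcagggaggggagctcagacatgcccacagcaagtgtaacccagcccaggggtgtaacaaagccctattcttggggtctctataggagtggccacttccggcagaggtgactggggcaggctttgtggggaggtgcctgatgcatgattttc

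RefSeq windows of 300 bases (250 before to 50 after the start) were given for 32 of the 48 keratins in 36 windows. KRT80, KRT15, KRT16, KRT18, KRT19 and KRT23 were among the 16 without one. GGTCA, the core of estrogen receptor sites, which reads TGACC on the other strand, was matched in all 4 printed stretches, in 33.3% of keratin windows and in 37.4% of all 35116 windows. AGAACA, the core of progesterone receptor sites, matched in 5 keratins (13.9% of windows against 14.8%), of which KRT5 held it 33 bases after its start, outside the printed stretch. The GC box GGGCGG was found in 16.7% against 45.0%, the forkhead motif TGTTTAC in 2.78% against 3.42%, and the AP-1 motif TGACTCA in 0 keratin windows against 4.95%. The TATA box TATAAA was the most common in keratins, in 19 genes and 52.8% of windows against 11.5% of all. KRT37 had it 30 bases before the start. These are matches of letters only, and a missing match says only that the letters are not in the window.

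Genes that work with keratins were read alongside. Of 12 genes that link keratin filaments to desmosomes and other structures, 10 were tested. With priming, which called 7.50% of all clusters, 0 rose and 2 fell, PPL (periplakin, -0.84 ± 0.16) and JUP (plakoglobin, -0.47 ± 0.07). With P4 at 16 h, where 15.8% of all clusters were called, 7 rose and 1 fell, with a median change of 0.69 against -0.01 over all clusters. The largest was PKP1, a plakophilin of the desmosomes of stratified epithelia, which was 2.69 ± 0.24 higher (adjusted p = 1.18e-10) and already 1.04 ± 0.24 higher at 4 h. PPL (1.07 ± 0.16), PKP2 (0.95 ± 0.11) and the plakin EPPK1 (0.94 ± 0.18) rose as well, and DST fell by 0.66. E2+MPA against E2, where 19.8% of all clusters were called, gave 7 higher and 1 lower, with PKP1 at 2.82 ± 0.24.

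Of 15 transcription factors known to act on keratin or epidermal genes, 11 were tested. Priming (7.50% of all clusters called) lowered 4 and raised 0, namely ZNF750 (-1.31 ± 0.13), a factor of epidermal differentiation, GRHL3 (-1.25 ± 0.22) and GRHL1 (-1.21 ± 0.12) of the grainyhead family, and OVOL1 (-0.82 ± 0.17). P4 raised 7 and lowered 2 at 16 h (15.8% of all clusters called), with ZNF750 1.54 ± 0.13 higher, KLF4 0.80 ± 0.08, KLF5 0.64 ± 0.11 and HOXC13, a regulator of hair keratins, 0.64 ± 0.14. At 4 h 4 rose and 4 fell (7.90% of all clusters called). There KLF5 (1.05 ± 0.11), GRHL1 (1.12 ± 0.12) and KLF4 (0.98 ± 0.08) were higher while GRHL3 (-0.83 ± 0.22) was lower. ZNF750 and PPL, like KRT80 and KRT4, were lower with priming and higher with P4. The E2p vehicle 16 h arrays enter both comparisons with opposite sign, so these 2 changes are not independent of each other. Among 8 tested genes of other intermediate filaments, which include VIM, 0 were called with priming (median change 0.26, against 7.50% of all clusters called) and 2 rose with P4 at 16 h (15.8%), the nuclear lamins LMNB1 (0.39 ± 0.07) and LMNB2 (0.44 ± 0.10).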

How the data were processed

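RNA of ZR-75-1 cells was hybridised by the authors to Affymetrix Human Gene ST arrays. The deposited log2 values per transcript cluster were made by the authors with RMA (named with limma, without versions, in the submitters' processing notes), and no background or scaling step was added here. The labels name one Human Gene ST design, whereas the deposited identifiers are those of a later design of that family, whose annotation table was used for gene names: of 53617 clusters 16098 had 1 gene symbol. Group membership followed the labels. Clusters above the 30th percentile of an array on at least 3 arrays were kept (41374), a model with 1 mean per group was fitted to all 44 arrays (30 residual degrees of freedom) with limma 3.58.1 in R 4.3.3, and p-values were adjusted over all clusters tested by the Benjamini-Hochberg method. Two-sided moderated tests were called at an adjusted p of at most 0.05. The number of arrays limits the precision. The scripts were tested on simulated data.

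Keratins to name were KRT5 and KRT80, a fixed set of simple and basal keratins (KRT7, KRT8, KRT14, KRT15, KRT18, KRT19), and up to 5 more per direction and comparison, by size of change among those called. Further called or flat members were named after their values were seen. Related genes were named by the same size rule from the lists. The members, classes, lists and rules were chosen with earlier results of these data known. Protein identity between members was not computed. Replicate numbers of the labels did not pair the samples. Alternatives covered the filter, the arrays entering the fit, the interquartile range of each array as a covariate, array weights, the variance prior, a replicate term, a shift to a common median, all clusters of a gene and each array left out. Using the primed 0 h group in place of 16 h was added after the data were seen.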

Additional observations from a re-analysis of the deposited data

Results flagged for a closer look

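Several keratins responded differently at different times, between the progestins or with fresh E2, by tests of the difference itself. The P4 effect at 16 h exceeded that at 4 h on the log2 scale for KRT80 by 2.67, KRT32 by 1.39, KRT16 by 0.95, KRT15 by 0.52, KRT19 by 0.47 and KRT18 by 0.45. The calls of KRT80 and KRT18 were kept whichever of the 12 arrays was left out, that of KRT15 was lost without P4 4 h replicate 3, and those of KRT16, KRT32 and KRT19 without any one of 5, 6 and 8 arrays (adjusted p up to 0.191). The MPA effect at 16 h exceeded that at 4 h for KRT32 by 1.59 and KRT10 by 0.71. The KRT32 call was lost without MPA 16 h replicate 3 (adjusted p = 0.0516) and the KRT10 call without any one of 9 arrays. KRT16 responded more to MPA when E2 was added again, by 1.22. Over the 3 times MPA minus P4 was -0.26 for KRT15, and with E2 present it was -0.35 for KRT15, 1.40 for KRT16 and 1.24 for KRT80.

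In the 5 arrays of E2+P4, 2 of the 44 tested keratins had a sample far from the others, namely KRT13 with 5.30 beside 5.52 to 5.58 and KRT35 with 5.46 beside 4.83 to 4.98. Chance gives about 1 such group in 20, and neither gene was called in a comparison that used E2+P4.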

How the results depend on the processing

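No named keratin reversed its direction under the filters, covariates, weights, variance prior, replicate term, common median, other clusters or the compared arrays alone. Of 107 named changes, calls stayed for 101 with no filter, 102 with the interquartile range as a covariate, 101 with array weights, 97 with a common median and all 107 with a trended and robust prior. Using primed vehicle 0 h in place of 16 h turned KRT15 from -0.49 to 0.016 (adjusted p = 0.950), lost the call of KRT19 (-0.28, adjusted p = 0.0747) and added KRT35 (0.66, adjusted p = 0.0300). Fitting only the compared arrays, with fewer arrays behind each spread, kept 62 of 91 and gave 3 keratins for priming, 0 for P4 4 h, 0 for MPA 4 h, 9 for MPA 8 h, 0 for MPA minus P4, 7 for E2+P4 against E2 and 2 for the P4 effect at 16 against 4 h. No filter gave 3 at P4 4 h. Array weights gave 2 for MPA minus P4 and 3 for vehicle over time, and the interquartile range 2 for vehicle over time. Above the 50th percentile on at least 3 arrays were 29 keratins in place of 44.

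The replicate number of the labels as a block changed no count of calls by over 1.5 times, with 6 keratins for priming, 5, 7 and 10 for P4 at 4, 8 and 16 h, 4, 5 and 10 for MPA, 10 for E2+P4 and 12 for E2+MPA against E2, and 16 over all groups. It lost 5 named calls: KRT37 at P4 4 h (adjusted p = 0.0615), KRT23 at P4 16 h (0.0579), KRT83 for E2+P4 against E2 (0.0508), KRT80 for E2+MPA against E2+P4 (0.0735) and KRT19 for P4 16 against 4 h (0.0577). Deviations of same-numbered arrays correlated from -0.553 to 0.550 over 273 pairs (median 0.0159), and 18 of 42 arrays correlated best with their own number.

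With single arrays left out, the count of keratins called was 4 to 6 for priming, 1 to 4 for P4 4 h, 5 to 7 for P4 8 h, 10 to 11 for P4 16 h, 1 to 4 for MPA 4 h, 5 to 6 for MPA 8 h and 8 to 11 for MPA 16 h. It was 0 to 1 for MPA minus P4, 7 to 11 for E2+P4 and 9 to 11 for E2+MPA against E2, 3 to 7 for the P4 effect at 16 against 4 h, 7 to 9 for P4 against unprimed, 15 to 17 over all groups and 1 to 2 for vehicle over time. With 3 arrays in most groups, changes of the size of the named SE values could not be told from the spread.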
